A study of Mus musculus with 81 samples.

Results

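Cell cycle genes were followed across hippocampal area CA1 of mice in which a histone variant was depleted or in which a memory was formed. The set held 40 genes chosen by symbol and role in the cycle, with no threshold on their measured values but with earlier results of these data known. It comprised 16 genes that act from G1 into S phase and 24 genes that act in G2 and mitosis. Counts of the set beside all genes are therefore descriptions of a set that was not chosen blind. All 40 were found in each count table, which listed 55536 genes for the depletion experiment, 20801 for the training experiment and 24498 for intact mice.

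Division runs in an ordered cycle. In G1, D-type cyclins and then E-type cyclins activate their kinases, which release E2F factors from the pocket proteins of the Rb family, and the replication origins that were licensed by Cdc6, Cdt1 and the Mcm helicase are then fired. In G2 and mitosis, cyclin A2 and the B-type cyclins drive Cdk1. A late set of genes for the spindle, the kinetochore and chromosome condensation is kept silent in quiescence and G1 by the DREAM complex and is switched on in G2 by B-Myb and Foxm1. In the adult hippocampus mature neurons have left the cycle, and division is known from oligodendrocyte progenitors, from neural progenitors of the dentate gyrus, and from microglia and immune cells when these are activated.

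In the depletion experiment, adult male C57BL/6J mice received an AAV-DJ virus in the dorsal CA1 of both hemispheres. The virus carried a hairpin against H2afy, which encodes mH2A1 (shH2afy), a hairpin against H2afy2, which encodes mH2A2 (shH2afy2), or a scrambled hairpin (shScr), with 3 mice in each group. In the training experiment, 3 mice per group received shH2afy or shScr and were either fear conditioned and taken 1 h later or kept in the home cage (trained or untrained). Intact mice without virus, 2 trained and 3 untrained, were sequenced separately. The hairpin was driven by the U6 promoter, which is active in any infected cell type, and GFP by the CMV promoter. The infected tissue was dissected, so that each library holds RNA of neurons, glia and any immune cells present. Chromatin domains of mH2A1 and mH2A2 were taken from further intact mice.

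Libraries held 9.95 M to 18.8 M counts (M, mega) in the depletion experiment, 81.4 M to 92.2 M in the training experiment and 48.8 M to 58.6 M in intact mice. Levels are given as CPM, each gene's count scaled to its library's total after TMM normalization. H2afy was at 43.5, 44.5 and 38.7 CPM in shH2afy libraries, against 60.6, 59.2 and 50.6 CPM in shScr libraries (log2 fold change -0.37 ± 0.1 SE, adjusted p = 0.031, above the 0.01 threshold), and the groups did not overlap. H2afy2 was at 13.2, 8.21 and 7.74 CPM in shH2afy2 libraries, against 18.2, 19 and 18.2 CPM in shScr libraries (-0.95 ± 0.22, adjusted p = 0.0907), again without overlap. In the training experiment H2afy was not lower in the libraries labelled shH2afy: the untrained libraries so labelled held 87, 87.7 and 87.7 CPM, against 81.7, 82.5 and 79.2 CPM in untrained shScr libraries, and the trained ones held 99.2, 93.8 and 89.1 CPM, against 85, 86.2 and 81.4 CPM in trained shScr libraries. That experiment was counted over whole transcripts after ribosomal depletion, and the part of this in its H2afy levels was not tested. The labels of the training experiment are therefore used as given, with directions drawn from them on that footing. These p-values, like all below, are from edgeR's quasi-likelihood test with Benjamini-Hochberg adjustment over all genes tested.

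Promoters are shown first, since the early and the late genes of the cycle carry different known elements. E2F factors bind sites rich in T followed by G and C, and the late genes carry the cell cycle genes homology region (CHR), often near CCAAT boxes. RefSeq promoters of 250 bases before to 50 bases after the start site (build GRCm38.p6) were on hand for 33 of the 40 genes, with none used for Ccnd1, Ccne2, Mcm4, Ccna2, Aurkb, Kif20a and Tpx2. The search was for TTTCCCGC, TTTCGCGC, TTTGCCGC and TTTGGCGC as E2F letters, TTTGAA as CHR letters and CCAAT, each on both strands. The following lines give the 150 bases up to the start site, 5′ to 3′ on the gene's strand, with matches in capitals. Cdk1, Top2a, Mki67 and Ube2c are shown as late genes with large differences, Mcm6, Cdc6 and Rrm2 as early genes, and Ccne1 as an early gene that was not higher in any comparison.
Cdk1, chr10:69352913-69353062, minus strand: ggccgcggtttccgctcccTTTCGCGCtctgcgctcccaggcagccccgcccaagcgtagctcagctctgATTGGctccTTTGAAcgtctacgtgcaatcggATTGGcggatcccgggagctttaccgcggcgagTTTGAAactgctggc
Top2a, chr11:99024190-99024339, minus strand: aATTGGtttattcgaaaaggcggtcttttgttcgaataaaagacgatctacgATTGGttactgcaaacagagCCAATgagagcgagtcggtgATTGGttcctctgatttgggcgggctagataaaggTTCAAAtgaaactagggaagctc
Mki67, chr7:135716380-135716529, minus strand: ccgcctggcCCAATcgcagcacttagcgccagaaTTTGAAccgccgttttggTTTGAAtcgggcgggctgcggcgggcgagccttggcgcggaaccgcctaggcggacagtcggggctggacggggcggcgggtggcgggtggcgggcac
Ube2c, chr2:164769779-164769928, plus strand: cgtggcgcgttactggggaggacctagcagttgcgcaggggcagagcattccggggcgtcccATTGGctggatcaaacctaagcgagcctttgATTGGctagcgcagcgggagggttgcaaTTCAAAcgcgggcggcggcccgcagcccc
Mcm6, chr1:128359706-128359855, minus strand: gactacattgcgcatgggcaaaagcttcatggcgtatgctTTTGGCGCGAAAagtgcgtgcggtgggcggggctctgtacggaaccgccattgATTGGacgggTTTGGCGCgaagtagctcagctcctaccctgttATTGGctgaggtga
Cdc6, chr11:98908001-98908150, plus strand: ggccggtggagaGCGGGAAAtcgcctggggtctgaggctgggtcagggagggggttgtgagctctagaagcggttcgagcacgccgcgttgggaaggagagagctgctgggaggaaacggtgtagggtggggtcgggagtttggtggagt
Rrm2, chr12:24708104-24708253, plus strand: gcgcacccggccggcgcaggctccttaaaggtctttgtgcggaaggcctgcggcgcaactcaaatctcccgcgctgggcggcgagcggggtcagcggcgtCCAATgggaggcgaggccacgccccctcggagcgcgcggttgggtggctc
Ccne1, chr7:38107491-38107640, minus strand: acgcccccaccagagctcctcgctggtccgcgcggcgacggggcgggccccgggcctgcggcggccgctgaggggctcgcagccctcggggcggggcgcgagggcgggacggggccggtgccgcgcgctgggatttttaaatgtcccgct

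CHR letters lay in 15 of 20 G2/M promoters (75%) and in 1 of 13 G1/S promoters (7.69%, that of Mcm2), against 5466 of 27025 genes with a promoter in the table (20.2%). E2F letters lay in 2 of 20 G2/M promoters (10%, Cdk1 and Ncapg) and in 6 of 13 G1/S promoters (46.2%: Cdc6, Cdt1, Mcm3, Mcm5, Mcm6 and Mcm7), against 704 of all 27025 (2.6%). CCAAT was present in 18 of 20 G2/M promoters (90%), 7 of 13 G1/S promoters (53.8%) and 11096 of all (41.1%). In the printed window of Mcm6, the long run of capitals is a pair of E2F matches that overlap on opposite strands. No match was found in Ccne1. A match is a description of letters, not of a bound site.

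**Figure D1:**
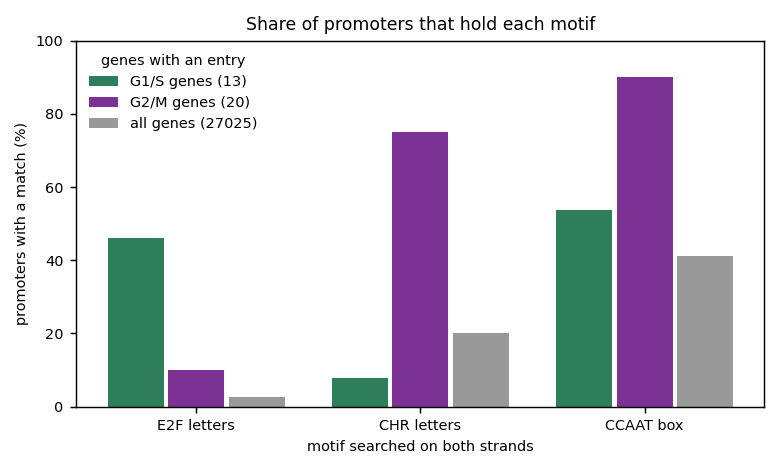
Share of promoters (percent, from 0) that hold E2F, CHR or CCAAT letters among 20 G2/M genes, 13 G1/S genes and all 27025 genes of the table. CHR letters stand at 75% in G2/M promoters, 7.69% in G1/S promoters and 20.2% in all.

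Much of the set was higher in shH2afy than in shScr libraries of the depletion experiment, the late genes most often. Of the 40 genes, 27 were higher and 0 lower at an adjusted p under 0.01, beside 12.6% of the 16179 genes tested that were higher and 4.47% that were lower. Among G2/M genes 20 of 24 rose, with a median log2 fold change of 2.38 over all 24. Among G1/S genes 7 of 16 rose, with a median of 1.13. The median over all genes tested was 0.01. In 37 of the 40 genes every shH2afy library was above every shScr library, beside 23.7% of all genes tested. All 40 passed the filter on low counts here, but 7 of them (Tk1, Ccnb2, Aurkb, Bub1, Birc5, Ncapg and Ube2c) failed it where shH2afy2 was set against shScr and so passed through the shH2afy libraries alone. Of those 7, 5 rose, and of the other 33, 22 rose. The difference between the early and the late genes was not tested.

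Summed over the 24 G2/M genes, the level was 213, 174 and 157 CPM in shH2afy libraries, against 28.4, 29.4 and 47.9 CPM in shScr libraries, a ratio of means of 5.14. Summed over the 16 G1/S genes it was 366, 344 and 254 CPM in shH2afy libraries, against 193, 180 and 167 CPM in shScr libraries, a ratio of 1.78. Neither pair of groups overlapped. In bulk tissue of this kind, more cells in the cycle and more RNA per cycling cell cannot be told apart.

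**Figure D2:**
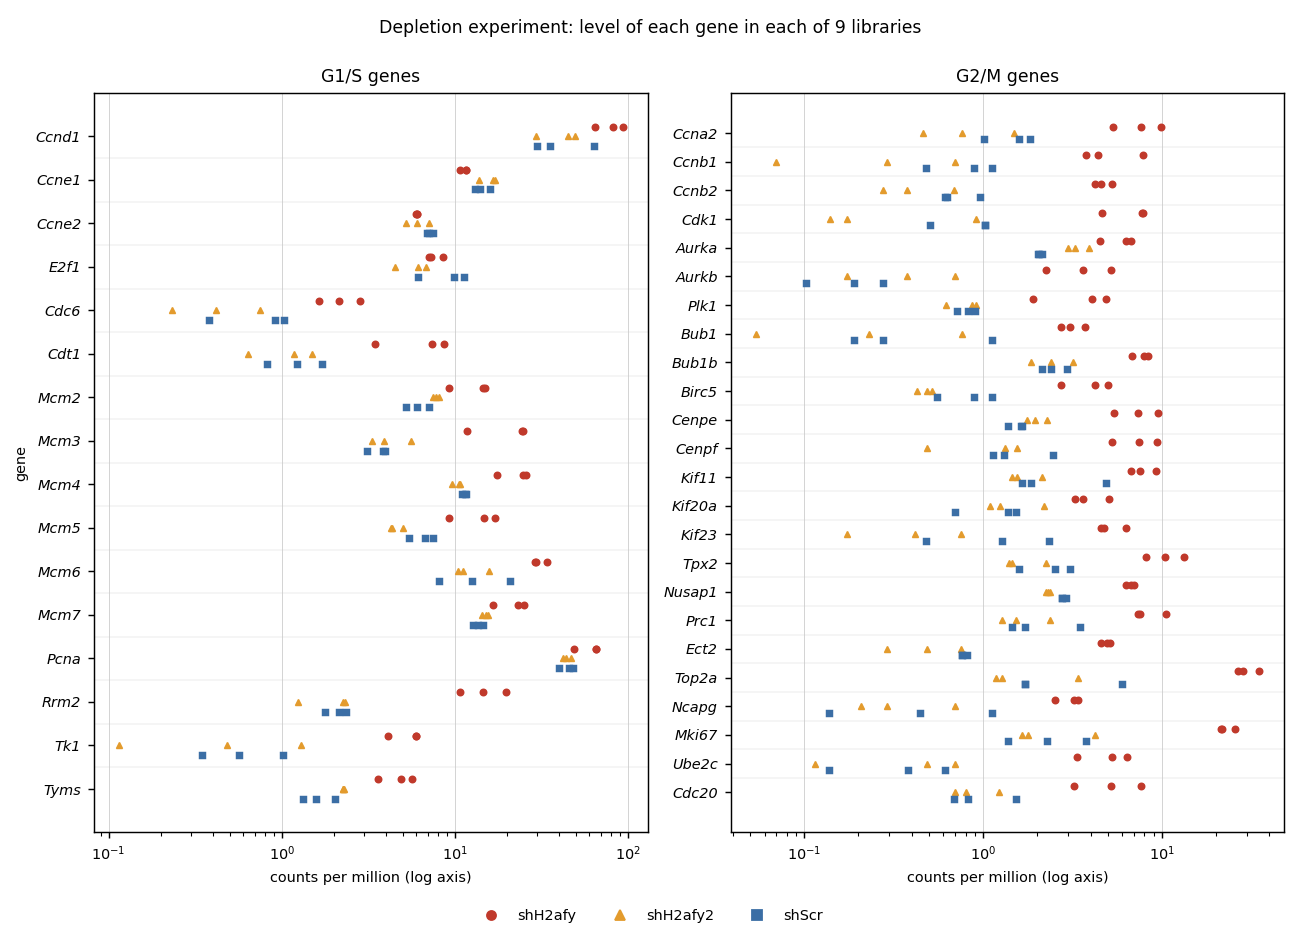
Levels of the 16 G1/S and 24 G2/M genes in each library of the depletion experiment (CPM, log axis), 1 point a library, with 3 libraries for each of shH2afy, shH2afy2 and shScr. Top2a sits between 26.8 and 35.1 CPM in shH2afy libraries and at or below 6.02 CPM in the other 6.

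The cyclins and their kinase divided by phase. Cdk1, the kinase that starts mitosis, was at 7.84, 7.72 and 4.65 CPM in shH2afy libraries, against 1.03, 0.507 and 1.02 CPM in shScr libraries. The groups stood clear of each other, and Cdk1 rose (log2 fold change 3.06 ± 0.37 SE, adjusted p = 0.00109). Ccna2, the cyclin of S and G2 phases, was at 9.87, 7.66 and 5.33 CPM, against 1.59, 1.01 and 1.84 CPM in shScr libraries (2.44 ± 0.34, adjusted p = 0.00187). Ccnb1 and Ccnb2, the cyclins that activate Cdk1, rose by 2.76 ± 0.43 (adjusted p = 0.003) and 2.71 ± 0.28 (adjusted p = 0.000567) on the log2 scale. The lowest shH2afy library for Ccnb1, at 3.76 CPM, was above the highest shScr library, at 1.12 CPM.

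None of the G1 cyclins passed. Ccnd1, the cyclin D that couples growth signals to Cdk4 and Cdk6, was at 93.5, 82.4 and 64.4 CPM in shH2afy libraries, against 64, 30.1 and 35.4 CPM in shScr libraries (0.95 ± 0.28, adjusted p = 0.0365). The lowest shH2afy library and shScr replicate 1 were almost level. Ccne1, the cyclin that takes Cdk2 into S phase, was at 11.6, 11.7 and 10.7 CPM in shH2afy libraries, against 14.1, 16.1 and 13.1 CPM in shScr libraries, without overlap and with a negative estimate (-0.28 ± 0.13, adjusted p = 0.135). Its paralogue Ccne2 lay at 5.96 to 6.08 CPM in shH2afy libraries, against 6.9 to 7.54 CPM in shScr libraries (-0.19 ± 0.15, adjusted p = 0.381). E2f1, the activating E2F factor that drives S phase genes, overlapped between groups at 8.58, 7.32 and 7.11 CPM in shH2afy libraries, against 6.14, 11.3 and 9.9 CPM in shScr libraries (-0.19 ± 0.25, adjusted p = 0.589).

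Of the 8 licensing genes 4 rose, and all 8 had positive estimates. Cdt1, which loads the Mcm helicase on origins, was at 8.65, 7.43 and 3.48 CPM in shH2afy libraries, against 0.828, 1.71 and 1.23 CPM in shScr libraries (2.43 ± 0.42, adjusted p = 0.00489). Mcm3, a subunit of that helicase, was at 24.5, 24.8 and 11.8 CPM, against 3.86, 3.1 and 3.98 CPM in shScr libraries (2.54 ± 0.32, adjusted p = 0.00126). For both genes shH2afy replicate 3 was the lowest of its group and still above every shScr library. Mcm2 and Mcm4, subunits of the same ring, rose by 1.13 ± 0.22 (adjusted p = 0.00794) and 1.05 ± 0.17 (adjusted p = 0.0036). The estimates of Mcm5, Mcm6 and Mcm7 were 1.13, 1.22 and 0.73 with adjusted p of 0.0148, 0.0187 and 0.0184, and that of Cdc6, Cdt1's partner in loading, was 1.58 (adjusted p = 0.027). Mcm6 was at 34.3, 29.7 and 29 CPM in shH2afy libraries, against 8.14, 20.8 and 12.6 CPM in shScr libraries, so that a wide spread among shScr libraries stood beside a complete separation.

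The set's members of nucleotide supply, Rrm2, Tk1 and Tyms, rose and the replication clamp did not pass. Rrm2, the small subunit of ribonucleotide reductase, was at 19.9, 14.5 and 10.8 CPM in shH2afy libraries, against 2.14, 1.77 and 2.35 CPM in shScr libraries (2.92 ± 0.28, adjusted p = 0.000444). Tk1, thymidine kinase, was at 6.01, 5.96 and 4.1 CPM, against 0.345, 0.57 and 1.02 CPM in shScr libraries (3.16 ± 0.4, adjusted p = 0.00134). Tyms, thymidylate synthase, rose by 1.59 ± 0.29 (adjusted p = 0.00587). Pcna, the sliding clamp of DNA polymerases that also serves in repair, was at 65.3, 65.6 and 48.8 CPM in shH2afy libraries, against 48.6, 45.6 and 39.9 CPM in shScr libraries (0.48 ± 0.14, adjusted p = 0.0326). Its lowest shH2afy library and its highest shScr library were nearly equal.

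Mitotic kinases, kinetochore proteins and checkpoint proteins rose in 7 of 8 cases. Aurkb, the kinase of the chromosomal passenger complex, showed the highest estimate in the set: it was at 5.2, 3.63 and 2.25 CPM in shH2afy libraries, against 0.276, 0.19 and 0.102 CPM in shScr libraries (4.23 ± 0.48, adjusted p = 0.000885). It rested on 4, 3 and 1 counts in the shScr libraries, so the size of this ratio is loosely set. Birc5, survivin, a partner of Aurkb in that complex, rose by 2.3 ± 0.37 (adjusted p = 0.00364). Aurka, the centrosomal Aurora kinase, was at 6.35, 6.69 and 4.51 CPM in shH2afy libraries, against 2.07, 2.15 and 2.04 CPM in shScr libraries (1.55 ± 0.23, adjusted p = 0.00279). Plk1, the polo kinase, rose by 2.2 ± 0.4 (adjusted p = 0.00578), and the checkpoint kinase Bub1b by 1.68 ± 0.2 (adjusted p = 0.00111). Cenpe and Cenpf, kinetochore proteins, rose by 2.31 ± 0.28 (adjusted p = 0.00103) and 2.27 ± 0.37 (adjusted p = 0.00387), and in both shH2afy replicate 3 was the highest library, at 9.5 and 9.43 CPM. Bub1, the kinase that recruits the checkpoint to kinetochores, had an estimate of 2.76 ± 0.58 (adjusted p = 0.0102), at 3.72, 3.06 and 2.73 CPM in shH2afy libraries, against 0.276, 0.19 and 1.12 CPM in shScr libraries.

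Among the 7 genes of spindle motors, midzone and cytokinesis 5 rose. Ect2, the exchange factor that turns on RhoA at the cleavage furrow, had the smallest p of the set and very even libraries, at 5.14, 4.94 and 4.58 CPM in shH2afy libraries, against 0.759, 0.76 and 0.817 CPM in shScr libraries (2.7 ± 0.23, adjusted p = 0.000328). Nusap1, a spindle microtubule protein, was as even at 6.69, 6.35 and 7.04 CPM, against 2.76, 2.91 and 2.76 CPM in shScr libraries (1.31 ± 0.18, adjusted p = 0.00176). Tpx2, the activator of Aurka on the spindle, the midzone bundler Prc1 and the midzone motor Kif20a rose by 2.23 ± 0.3, 2.03 ± 0.37 and 1.81 ± 0.36 on the log2 scale (adjusted p = 0.00181, 0.00548 and 0.00834). The motors Kif11, which separates the poles, and Kif23, of the central spindle, had estimates of 1.58 ± 0.43 and 2.04 ± 0.49 (adjusted p = 0.0275 and 0.0175). For both, shScr replicate 3 was the highest of its group, at 4.9 CPM for Kif11 beside 1.86 and 1.65 CPM in the other shScr libraries.

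The chromosome and proteolysis genes held the largest median among the roles, 3.3 on the log2 scale, with 4 of 5 higher, beside 12.6% of all genes tested. Ube2c and Ncapg had passed the filter on low counts only through the shH2afy libraries. They rested on 2, 6 and 6 counts and on 2, 7 and 11 counts in shScr libraries. Roles were not tested against each other. Top2a, the topoisomerase that untangles sister chromatids, was at 35.1, 28.5 and 26.8 CPM in shH2afy libraries, against 1.72, 1.71 and 6.02 CPM in shScr libraries (3.38 ± 0.48, adjusted p = 0.00213). Mki67, which coats mitotic chromosomes and marks cycling cells, was at 25.6, 21.4 and 21.7 CPM, against 1.38, 2.28 and 3.78 CPM in shScr libraries (3.3 ± 0.33, adjusted p = 0.000525). Both genes were highest among shScr libraries in replicate 3. Ube2c, the ubiquitin-conjugating enzyme of the anaphase-promoting complex, rose by 3.84 ± 0.49 (adjusted p = 0.00132), and its activator Cdc20 by 2.49 ± 0.44 (adjusted p = 0.00533). Ncapg, a condensin subunit, had an estimate of 2.57 ± 0.57 (adjusted p = 0.0127).

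**Figure D3:**
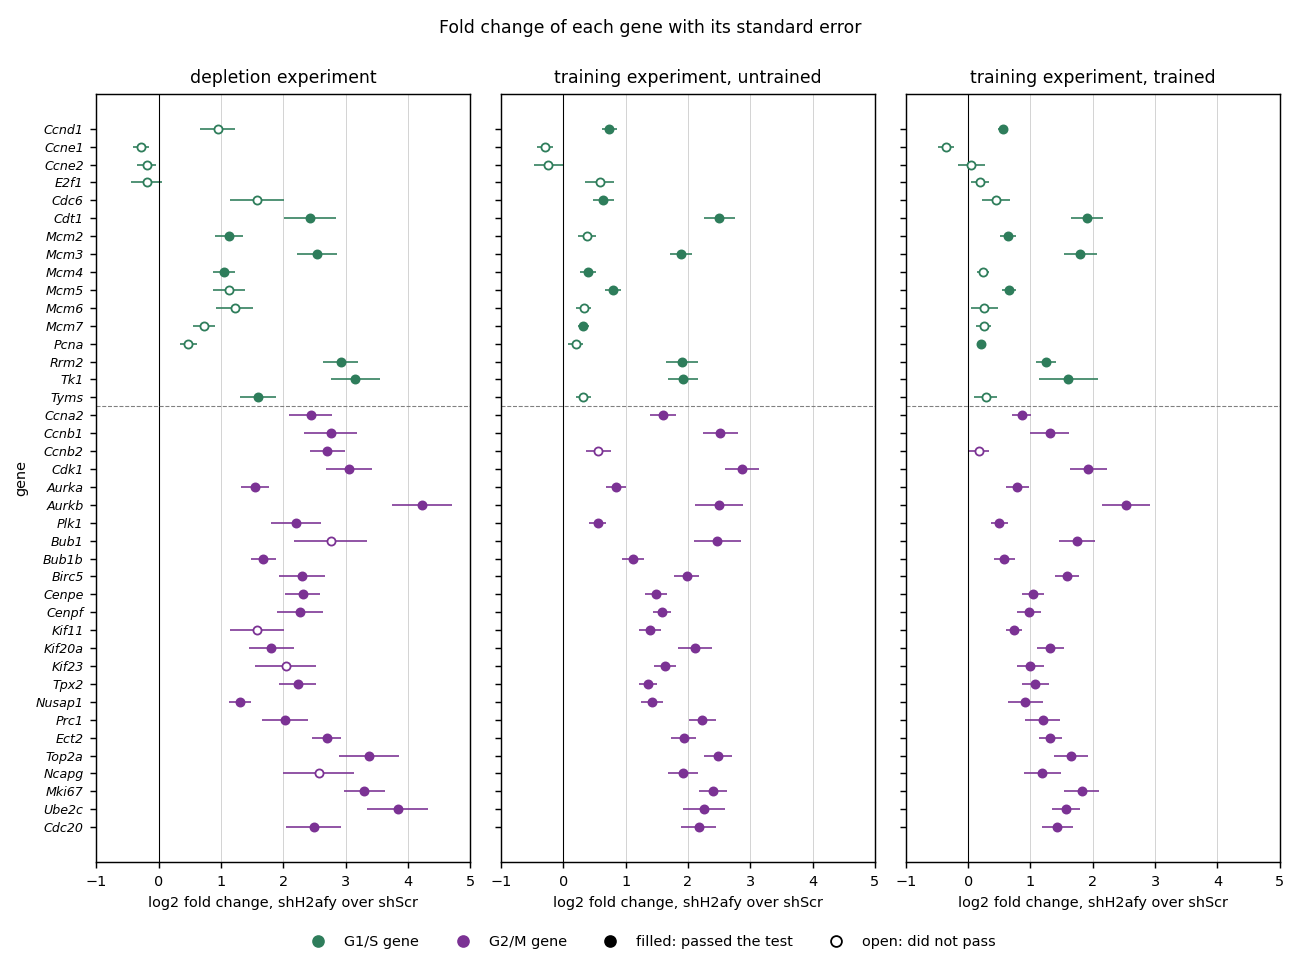
Log2 fold changes of the 40 genes with standard errors, for shH2afy against shScr in the depletion experiment and in the untrained and trained mice of the training experiment, with G1/S genes above G2/M genes and filled points for genes that passed the test. Aurkb lies highest in the depletion experiment at 4.23, and Ccne1 lies below 0 in all 3 comparisons.

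The number of genes past the threshold leaned on single libraries, while the direction did not. With shH2afy replicates 1, 2 and 3 left out in turn it was 11, 17 and 29, while the share called of all genes tested, in either direction, was 6.04, 9.02 and 21.2%, beside 17.1% with all libraries. With shScr replicates 1, 2 and 3 left out in turn it was 15, 13 and 19, beside 8.59, 7.24 and 7.15% of all genes. In each of these 6 fits 37 of the 40 estimates were positive, with medians of 1.97 to 2.38. DESeq2 gave 35 higher and 0 lower, beside 27.1% of all genes called.

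Between shH2afy2 and shScr no gene of the set passed the test. Of the 33 genes tested, 0 passed an adjusted p under 0.01 in edgeR and 0 in DESeq2, with 3 at an unadjusted p under 0.05: Aurka at 0.67 ± 0.22 (adjusted p = 0.153), Mcm5 at -0.55 ± 0.2 (adjusted p = 0.186) and E2f1 at -0.68 ± 0.27 (adjusted p = 0.221). The share called over all 15609 genes tested was 0%, with 3238 genes at an unadjusted p under 0.05 and 486 called by DESeq2. In 4 of the 33 genes (Mcm2, Tyms, Aurka and Cenpe) every shH2afy2 library was above every shScr library, beside 14.8% of all genes. The median estimate over the 33 was -0.17, and 9 were positive. The G2/M sum was 25.9, 37.2 and 24.8 CPM in shH2afy2 libraries, against 28.4, 29.4 and 47.9 CPM in shScr libraries, and the ranges overlapped.

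Set directly against shH2afy2, shH2afy was higher in 30 of 40 genes and lower in 0, beside 9.83% higher and 6.74% lower among 16294 genes tested. These libraries of shH2afy are the same as in the comparison with shScr. Of the G2/M genes 22 passed (median 2.98 over all 24), and of the G1/S genes 8 did. All 7 genes that passed the filter on low counts only through the shH2afy libraries were among those higher, with 23 of the other 33. Top2a was at 35.1, 28.5 and 26.8 CPM in shH2afy libraries, against 1.18, 3.38 and 1.27 CPM in shH2afy2 libraries (3.95 ± 0.38, adjusted p = 0.00174). Mcm6, which had missed the threshold against shScr, was at 10.5, 11.2 and 15.9 CPM in shH2afy2 libraries and passed here (1.33 ± 0.17, adjusted p = 0.00262). Aurka did not pass, at 2.98, 3.27 and 3.93 CPM in shH2afy2 libraries (0.81 ± 0.23, adjusted p = 0.0279), although every shH2afy library was above them. Single libraries set this count, and the count over all genes, 16.6% in either direction with all libraries, moved with it. Leaving out shH2afy replicate 1 left 0 genes of the set past the threshold and 2 of all 16665 tested (0.012%), and leaving out its replicate 2 left 14, beside 4.91% of all genes. Dropping shH2afy2 replicate 1 gave 3 (Rrm2, Top2a and Ccnb2, one of the 7 named above), beside 1.02% of all genes, and dropping its replicate 3 gave 2 (Mcm6 and again Ccnb2), beside 0.416%. The estimates were positive for 38 or 39 genes each time, with medians of 2.14 to 2.63.

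The training experiment repeated the comparison with other mice, deeper libraries and counting over whole transcripts. Among untrained mice, 32 of 40 genes were higher in the libraries labelled shH2afy than in shScr libraries and 0 were lower at an adjusted p under 0.05, beside 26.2% higher and 21.7% lower among 15799 genes tested. In 36 genes every library labelled shH2afy was above every shScr library, beside 29.4% of all genes. Of the G2/M genes 23 of 24 rose (median 1.92), and of the G1/S genes 9 of 16 rose (median 0.49). Among trained mice 31 were higher and 0 lower, beside 24.2% higher and 21.7% lower among 15703 genes tested. In 33 genes the trained groups did not overlap with the libraries labelled shH2afy above, beside 29.8% of all genes. Again 23 of 24 G2/M genes rose (median 1.19), and 8 of 16 G1/S genes rose (median 0.37). The count lower was 1, Ccne1, with DESeq2, with all groups in 1 fit, and without trained replicate 2 labelled shH2afy. H2afy itself was not lower in the libraries so labelled.

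The late genes again stood well apart. Top2a was at 7.97, 9.89 and 13.4 CPM in untrained libraries labelled shH2afy, against 1.53, 1.89 and 2.24 CPM in untrained shScr libraries (2.48 ± 0.23, adjusted p = 0.000219). In trained mice it was at 7.93, 8.77 and 9.63 CPM in libraries labelled shH2afy, against 1.91, 4.1 and 2.42 CPM in shScr libraries (1.65 ± 0.28, adjusted p = 0.00453). Mki67 was at 8.44, 14 and 14.9 CPM in untrained libraries labelled shH2afy, against 2.3, 2.4 and 2.45 CPM in untrained shScr libraries (2.4 ± 0.22, adjusted p = 0.000221). No library labelled shH2afy was as low as any shScr library for these genes. Cdk1 had the highest estimate of the set in untrained mice, at 2.41, 2.61 and 3.44 CPM in libraries labelled shH2afy, against 0.264, 0.511 and 0.397 CPM in shScr libraries (2.87 ± 0.27, adjusted p = 0.000229). Aurkb had the highest in trained mice, at 0.918, 1.18 and 0.73 CPM in libraries labelled shH2afy, against 0.0796, 0.19 and 0.216 CPM in shScr libraries (2.53 ± 0.38, adjusted p = 0.00328).

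Ccnb2 was the one G2/M gene that passed in neither pair. It was at 1.75, 2.64 and 2.43 CPM in untrained libraries labelled shH2afy, against 1.58, 1.38 and 1.75 CPM in untrained shScr libraries (0.56 ± 0.2, adjusted p = 0.0556), and at 2.31, 2.16 and 2.47 CPM in trained libraries labelled shH2afy, against 2.25, 1.65 and 2.27 CPM in trained shScr libraries (0.17 ± 0.17, adjusted p = 0.45). Its partner Ccnb1 rose by 2.52 ± 0.28 in untrained mice (adjusted p = 0.000459) and by 1.31 ± 0.31 in trained mice (adjusted p = 0.0154). The depletion experiment had given nearly equal estimates for both cyclins, 2.76 for Ccnb1 and 2.71 for Ccnb2.

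**Figure D4:**
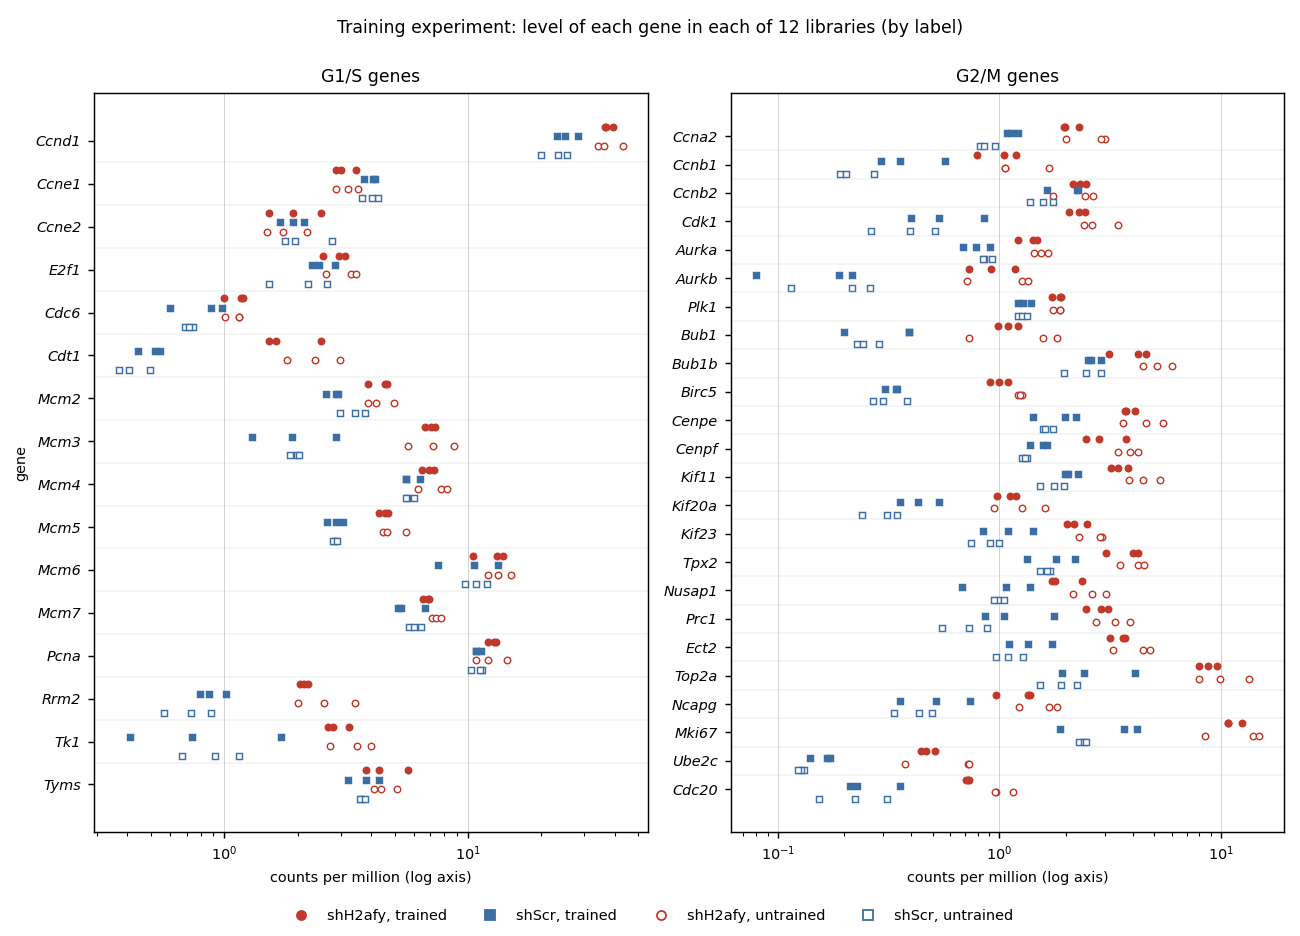
Levels of the 16 G1/S and 24 G2/M genes in each of the 12 libraries of the training experiment (CPM, log axis), for libraries labelled shH2afy and shScr, trained and untrained. Top2a lies between 7.93 and 13.4 CPM in all 6 libraries labelled shH2afy and at or below 4.1 CPM in the 6 shScr libraries.

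Of the early genes, Cdt1, Tk1, Rrm2 and Mcm3 had the highest estimates in untrained mice. Cdt1 was at 2.36, 2.98 and 1.8 CPM in untrained libraries labelled shH2afy, against 0.407, 0.37 and 0.496 CPM in untrained shScr libraries (2.5 ± 0.25, adjusted p = 0.000294). Mcm3 was at 5.68, 7.17 and 8.73 CPM in untrained libraries labelled shH2afy, against 1.99, 2.03 and 1.86 CPM in untrained shScr libraries (1.89 ± 0.18, adjusted p = 0.000222). Their trained libraries gave 1.91 ± 0.26 for Cdt1 (adjusted p = 0.00235) and 1.8 ± 0.27 for Mcm3 (adjusted p = 0.00325). Tk1 and Rrm2 rose by 1.92 ± 0.24 and 1.9 ± 0.26 in untrained mice (adjusted p = 0.0007 and 0.00106) and by 1.61 ± 0.48 and 1.25 ± 0.16 in trained mice (adjusted p = 0.0328 and 0.00197). The other 6 licensing genes lay lower, with estimates of 0.32 to 0.8 in untrained mice. Ccnd1, which had missed the stricter threshold of the depletion experiment, rose by 0.74 ± 0.12 in untrained mice (adjusted p = 0.00215) and by 0.56 ± 0.08 in trained mice (adjusted p = 0.00292). Mcm6 had estimates of 0.33 (adjusted p = 0.0543) in untrained and 0.26 (adjusted p = 0.362) in trained mice. Ccne1 again had a negative estimate, at 3.52, 2.86 and 3.22 CPM in untrained libraries labelled shH2afy, against 4.26, 3.67 and 4.04 CPM in untrained shScr libraries (-0.3 ± 0.13, adjusted p = 0.0987). In trained mice it was at 2.86, 3.46 and 3.02 CPM in libraries labelled shH2afy, against 4.07, 3.73 and 4.15 CPM in shScr libraries, without overlap (-0.35 ± 0.13, adjusted p = 0.0624 by edgeR and 0.0448 by DESeq2).

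Over the 3 comparisons of shH2afy with shScr, which share no library, 23 genes were higher in all 3. They were 19 of the 24 G2/M genes and 4 of the 16 G1/S genes, Cdt1, Mcm3, Rrm2 and Tk1. A further 8 genes were higher in 2 comparisons and 5 in 1. The 4 that were higher in none, Ccne1, Ccne2, E2f1 and Mcm6, were all G1/S genes. Of all genes tested, 12.6% were higher in the depletion experiment, 26.2% in untrained and 24.2% in trained mice of the training experiment. The share of all genes higher in all 3 comparisons was not counted. The threshold was an adjusted p of 0.01 in the depletion experiment and 0.05 in the training experiment. In the latter, H2afy was not lower in the libraries labelled shH2afy. The log2 fold change was larger in the depletion experiment than in untrained mice of the training experiment for 35 of 40 genes, and larger in untrained than in trained mice for 36. The training experiment was counted over whole transcripts after ribosomal depletion, so sizes in the 2 experiments are not on one footing. The share of all genes with a larger estimate was not counted for either pair. Across the 40 genes, which are not independent of each other, Pearson's r of the log2 fold changes was 0.83 between the depletion experiment and untrained mice, 0.84 between the depletion experiment and trained mice, and 0.94 between untrained and trained mice.

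Training itself moved no gene of the set past the threshold. Trained against untrained, 0 of 40 genes passed in shScr mice and 0 of 40 in libraries labelled shH2afy, by edgeR and by DESeq2, and the share of all genes called was 0% in both. At an unadjusted p under 0.05 there was 1 gene in shScr mice (Ccnb1, at 0.358, 0.571 and 0.292 CPM in trained libraries, against 0.192, 0.204 and 0.273 CPM in untrained libraries) and there were 2 in libraries labelled shH2afy, Kif11 and Cdc20. Over all genes these counts were 1382 and 613 by edgeR, and DESeq2 called 251 and 47. The estimates leaned opposite ways: 32 of 40 were positive in shScr mice (median 0.18) and 33 of 40 were negative in libraries labelled shH2afy (median -0.23). The G2/M sum was 24, 33.6 and 30.2 CPM in trained and 22.7, 23.4 and 25.2 CPM in untrained shScr mice. In libraries labelled shH2afy it was 62.1, 65.4 and 70.8 CPM in trained and 62.2, 82.2 and 90.9 CPM in untrained mice. The ranges overlapped in both. Arc and Fos, followed as a check of the training label, did not pass edgeR's test in shScr mice either. Their estimates were 1.42 ± 0.36 (adjusted p = 0.343) and 1.37 ± 0.39 (adjusted p = 0.391). A count of 0 therefore does not show that training left the set unchanged.

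The interaction, which asks if the virus changed the effect of training, passed for 0 of 40 genes, beside 0% of 15997 genes tested, with 333 genes at an unadjusted p under 0.05 and 0 called by DESeq2. For 9 members the unadjusted p was under 0.05, all G2/M genes with negative estimates: Ccna2, Ccnb1, Cdk1, Cenpf, Kif11, Kif20a, Prc1, Ect2 and Top2a. The estimates of Ccnb1 (-1.21 ± 0.42) and Prc1 (-1.03 ± 0.37) were the furthest from 0. A difference in the effect of training was therefore not shown for any of them.

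In intact mice, training moved 0 of the 37 genes tested by edgeR and 0 by DESeq2, beside 0.0959% of 15639 genes, and 4 genes (Ccne1, E2f1, Cdt1 and Mcm6) had an unadjusted p under 0.05, beside 3121 of all genes. Cdt1 was at 0.878 and 0.923 CPM in trained mice, against 1.99, 1.43 and 1.19 CPM in untrained mice (-0.78 ± 0.26, adjusted p = 0.166). Mcm6 was at 11.1 and 9.3 CPM in trained mice, against 6.45, 8.7 and 6.61 CPM in untrained mice (0.49 ± 0.15, adjusted p = 0.15). The G2/M sum was 18 and 18.7 CPM in trained mice, against 17.7, 20.2 and 18.2 CPM in untrained mice, with the trained libraries inside the untrained range. Without untrained replicate 2 the count was 1, Ccnd1, while the count over all genes was 416 (2.68%), against 15 with all libraries.

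Regulators around the set moved with it in part, in lists that were also written with earlier results of these data known. In the depletion experiment, where 12.6% of all genes tested rose, 4 of 9 Cdk inhibitors and pocket proteins tested rose under shH2afy and 0 fell. Cdkn1a, the inhibitor p21, was at 71.8, 67.7 and 46 CPM in shH2afy libraries, against 3.38, 11.9 and 7.66 CPM in shScr libraries (3.07 ± 0.41, adjusted p = 0.00164), so that a gene that halts the cycle rose along with those that run it. In shH2afy2 libraries it was at 31.1, 41 and 39.4 CPM, above every shScr library (2.25 ± 0.38), without passing edgeR's test (adjusted p = 0.0722), while DESeq2 called it higher (adjusted p = 5.84e-07). Rbl1, the pocket protein p107, rose by 2.8 ± 0.33 (adjusted p = 0.00102), and Cdkn2c, the inhibitor p18, by 1.71 ± 0.27 (adjusted p = 0.00313). Of the E2F, Myb and Foxm1 factors 4 of 12 rose: E2f8, a repressor E2F, by 4.2 ± 0.6 (adjusted p = 0.00218), E2f2 by 2.24 ± 0.28 (adjusted p = 0.00119), Foxm1, the activator of late genes, by 1.84 ± 0.22 (adjusted p = 0.00106), and Mybl2 by 1.78 ± 0.32 (adjusted p = 0.00527). Of the other cyclins, Cdks and Cdc25 phosphatases 4 of 12 rose, among them Cdk6 (2.42 ± 0.3, adjusted p = 0.00123) and Cdk2 (1.9 ± 0.29, adjusted p = 0.00296).

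Of 41 other mitotic genes tested, 24 rose and 0 fell, led by Kif2c, a kinesin that removes tubulin from microtubule ends (3.78 ± 0.36, adjusted p = 0.000432), and Ckap2, a spindle protein (4.08 ± 0.45, adjusted p = 0.00074). Of 26 other replication genes 3 rose, near the share of 12.6% over all genes: Chaf1b, of the histone chaperone CAF-1 (3.26 ± 0.43, adjusted p = 0.00158), Uhrf1, which guides maintenance methylation (2.41 ± 0.37, adjusted p = 0.00292), and Mcm10. Dut, the dUTPase, was the 1 that fell, at 20.5, 20.1 and 19.3 CPM in shH2afy libraries, against 28.6, 33 and 30.9 CPM in shScr libraries (-0.57 ± 0.11, adjusted p = 0.0074). In the training experiment the same lists gave 34 higher and 0 lower of 42 mitotic genes in untrained mice and 31 and 0 in trained mice, where 26.2% and 24.2% of all genes were higher. They gave 14 higher and 2 lower of 26 replication genes in untrained mice and 10 and 2 in trained mice, Dut and Cdc7, a kinase that fires origins, being the lower ones in both. With shH2afy2 none of these 5 lists had a gene past the threshold by edgeR, with at most 6 members of a list at an unadjusted p under 0.05, and DESeq2 called 1 gene in each of 3 lists, Cdkn1a, Ccnd3 and Smc4, all higher.

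Markers of other cell types moved with the same libraries. Counts of markers past the threshold stand beside 12.6% of all genes tested that were higher and 4.47% that were lower. A count of 1 marker in a list of 5 or 6 is not read as a result about that cell type. In the depletion experiment all 6 microglial markers rose under shH2afy, summing to 1730, 1750 and 1190 CPM, against 396, 271 and 304 CPM in shScr libraries. All 6 monocyte and macrophage markers rose, at 516, 811 and 142 CPM in shH2afy libraries, against 18.4, 4.5 and 8.58 CPM in shScr libraries. Astrocyte markers, of which 3 rose and 1 fell of 6, summed to 5750, 5510 and 5140 CPM in shH2afy libraries, against 2410, 1870 and 2090 CPM in shScr libraries. Of 5 markers of oligodendrocyte progenitors, a cell type that divides in the adult, 1 rose, with sums of 226, 200 and 182 CPM in shH2afy libraries, against 135, 119 and 143 CPM in shScr libraries. Of 5 markers of CA1 pyramidal neurons 1 fell, with sums of 448, 614 and 545 CPM, against 2060, 890 and 1010 CPM in shScr libraries. Inhibitory neuron markers summed to 563, 551 and 458 CPM in shH2afy libraries, against 1000, 925 and 935 CPM in shScr libraries. Immature neuron and neural progenitor markers, 0 of 6 past the threshold, overlapped at 89.6, 61.9 and 71.3 CPM in shH2afy libraries, against 35.3, 67.7 and 53.9 CPM in shScr libraries. The part of these cell types in the levels of cell cycle genes was not tested.

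Lymphocyte markers separated single libraries. B and plasma cell markers, with 1 gene tested and higher of 7, summed to 576, 835 and 1.78 CPM in shH2afy libraries and to 0.971, 152 and 0.866 CPM in shH2afy2 libraries, against 0.897, 0.507 and 1.74 CPM in shScr libraries. In shH2afy replicate 3 that sum was at the level of shScr libraries while its G2/M sum was 157 CPM, and in shH2afy2 replicate 2 it was 152 CPM with a G2/M sum of 37.2 CPM. T cell markers, with 1 higher of 5 tested, summed to 42.7, 67.3 and 7.11 CPM in shH2afy libraries, against 1.24, 0.76 and 21.2 CPM in shScr libraries. shScr replicate 3, at 21.2 CPM, was also the one with the highest G2/M sum of its group, 47.9 CPM. That library also held the fewest counts of the experiment, 9.95 M, and the highest sum of blood markers in its group, 159 CPM. In shH2afy replicate 3 the T cell sum was 7.11 CPM beside a G2/M sum of 157 CPM. The part of lymphocytes in the levels of cell cycle genes was not tested. With sums this low in most shScr libraries, a lymphocyte marker could pass the filter on low counts largely through high shH2afy libraries. The counts of B, plasma and T cell markers that were higher are therefore not read as results about these cells. Natural killer markers summed to 21.6, 23.8 and 1.71 CPM in shH2afy libraries, against 0.138, 0.127 and 0.306 CPM in shScr libraries, and none passed the filter on low counts. Neutrophil markers summed to at most 1.98 CPM in any library of this experiment, and Ly6g, which defines these cells, was at 0 in all 9.

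**Figure D5:**
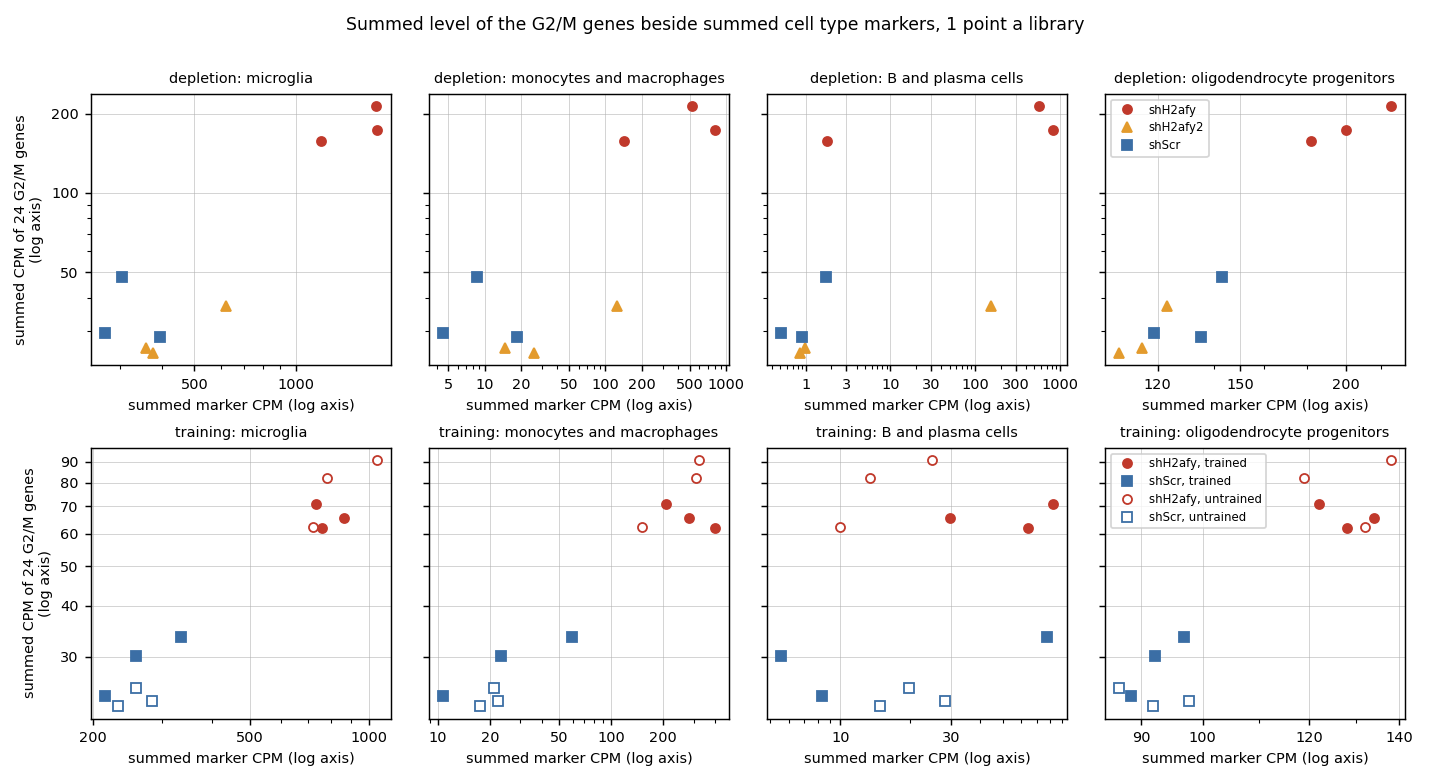
Summed level of the 24 G2/M genes against the summed level of markers of microglia, monocytes and macrophages, B and plasma cells, and oligodendrocyte progenitors (both in CPM, log axes), 1 point a library, with the depletion experiment above the training experiment and filled points there for trained mice. In the depletion experiment the 3 shH2afy libraries lie at 157 to 213 CPM for G2/M genes and at 1190 to 1750 CPM for microglial markers.

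In the training experiment microglial markers, 6 of 6 higher in both pairs, summed to 760, 864 and 736 CPM in trained libraries labelled shH2afy, against 215, 335 and 257 CPM in trained shScr libraries, and to 720, 783 and 1050 CPM in untrained libraries labelled shH2afy, against 232, 283 and 258 CPM in untrained shScr libraries. Monocyte and macrophage markers, 4 of 6 higher in trained and 5 of 6 in untrained mice, summed to 400, 284 and 207 CPM in trained libraries labelled shH2afy, against 10.7, 59.3 and 23.3 CPM in trained shScr libraries, and to 151, 310 and 322 CPM in untrained libraries labelled shH2afy, against 17.5, 22.4 and 21 CPM in untrained shScr libraries. T cell markers, 2 of 5 higher in trained and 5 of 5 in untrained mice, summed to 19.1 to 29.9 CPM in trained libraries labelled shH2afy, against 2.6 to 11 CPM in trained shScr libraries, and to 15.2 to 19.9 CPM in untrained libraries labelled shH2afy, against 4.05 to 5.99 CPM in untrained shScr libraries. Natural killer markers, 4 of 6 higher in trained and 6 of 6 in untrained mice, summed to 5.01 to 7.81 CPM in trained libraries labelled shH2afy, against 0.292 to 2.36 CPM in trained shScr libraries, and to 6.49 to 9.63 CPM in untrained libraries labelled shH2afy, against 0.599 to 1.15 CPM in untrained shScr libraries. Astrocyte markers, with 3 higher and 1 lower of 6 in trained and 4 and 1 in untrained mice, summed to 2080 to 2240 CPM in trained libraries labelled shH2afy, against 999 to 1370 CPM in trained shScr libraries, and to 1960 to 2200 CPM in untrained libraries labelled shH2afy, against 1040 to 1250 CPM in untrained shScr libraries. None of these pairs of groups overlapped. The counts stand beside 26.2% of all genes tested that were higher and 21.7% lower in untrained mice, and 24.2% and 21.7% in trained mice. A count of 1 marker lower is not read as a result about that cell type. Oligodendrocyte progenitor markers, 3 of 5 higher in both, summed to 122 to 134 CPM in trained libraries labelled shH2afy, against 88.5 to 96.9 CPM in trained shScr libraries. Immature neuron and progenitor markers summed to 67.6 to 69.6 CPM in untrained libraries labelled shH2afy, against 73.2 to 80.9 CPM in shScr, the opposite direction. In trained mice these sums overlapped, at 57.3 to 78.8 CPM where labelled shH2afy and 69.3 to 77 CPM in shScr. B and plasma cell markers had 0 of 6 past the threshold in both pairs, and their groups overlapped in both. They summed to 64, 29.7 and 82.4 CPM in trained libraries labelled shH2afy, against 8.37, 77.4 and 5.55 CPM in trained shScr libraries. In untrained libraries they summed to 9.97 to 24.9 CPM where labelled shH2afy, against 14.8 to 28.1 CPM in shScr. The G2/M sums were 62.1 to 70.8 CPM in trained libraries labelled shH2afy, against 24 to 33.6 CPM in trained shScr libraries. In untrained libraries they were 62.2 to 90.9 CPM in those labelled shH2afy, against 22.7 to 25.2 CPM in shScr. CA1 pyramidal neuron markers were lower where labelled shH2afy, summing to 202 to 334 CPM, against 553 to 844 CPM in shScr, in untrained mice. In trained mice they summed to 245 to 311 CPM, against 540 to 748 CPM in shScr. Inhibitory neuron markers summed to 195 to 199 CPM, against 246 to 303 CPM in shScr, in untrained mice. Their trained sums were 191 to 204 CPM, against 227 to 283 CPM in shScr. The part of these cell types in the levels of cell cycle genes was not tested here either.

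Chromatin domains of mH2A1 and mH2A2 were read at the start sites of the set in 20 libraries of intact mice: 2 trained and 3 untrained mice at 30 min for each of mH2A1 and mH2A2, and 5 trained and 5 untrained mice at 6 h for mH2A1. At 30 min both proteins were read in the same mice with shared inputs, so the 20 libraries are fewer than 20 mice, and by the study's methods the antibody against mH2A1 was another one at 6 h. Within 1 kb of the start site, a domain lay at a median of 23.75% of the 40 genes (range over libraries 2.5 to 35%), against 31.15% of 21728 protein-coding genes (16.4 to 36.5%). The share among the 40 was the lower one in 19 of 20 libraries. With the domain required to cover the start site itself, the share was lower among the 40 in 20 of 20 libraries and differed by set. For mH2A1 at 30 min it was 0 to 2.5% in trained and 10 to 17.5% in untrained mice, against 15.4 to 16.8% and 21.2 to 27.2% of all genes. For mH2A2 at 30 min it was 2.5 to 12.5% in trained and 7.5 to 25% in untrained mice, against 13 to 23.5% and 20.7 to 30.5% of all genes. For mH2A1 at 6 h it was 0 to 2.5% in trained and 0 to 5% in untrained mice, against 19.6 to 21.1% and 19.5 to 23.1% of all genes. Time and antibody cannot be told apart for mH2A1. G2/M and G1/S genes both had a median of 25% within 1 kb. At a false discovery rate under 0.001 the medians were 16.7% of G2/M and 25% of G1/S genes. Over the start site itself they were 4.17 and 6.25%, which is 1 gene of 24 and 1 gene of 16. By these rules in turn, the share was lower among G2/M than among G1/S genes in 12, 11 and 9 of 20 libraries. These shares are descriptions of libraries called one by one, and no test was made.

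By gene, Cdt1 and Ube2c had a domain within 1 kb in 16 of 20 libraries, Cdc20 in 13, Cdk1 and Ccne1 in 12 and Tk1 in 11. Mki67 had one in 7 and Top2a in 5. Genes with none in any library included Ccna2, Ccnb2, Ect2, Kif11 and Pcna, so that genes which rose under shH2afy stood at both ends. At 30 min the count for mH2A1 was 4 of 40 genes in each of the 2 trained mice, against 8 to 13 of 40 in the 3 untrained mice. The share of all protein-coding genes moved the same way, 20.2 to 20.3% in trained and 26 to 34.3% in untrained mice, and the length covered by domains was 325 to 334 Mb in trained and 369 to 416 Mb in untrained mice.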

How the data were processed

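RNA was sequenced from CA1 tissue of single mice, and the authors deposited raw read counts per gene, made with STAR and featureCounts on mm10 (the submitters' processing notes also name DESeq2 1.22.2, DiffBind 2.10.0, Bowtie2 and SICER). The training experiment was counted by the authors over whole transcripts after ribosomal depletion, so its levels are not set against those of the other tables. Chromatin domains were deposited as mm10 positions, called per library against input, with a false discovery rate (q-value) under 0.05 for each; the domains of 1 h were not used here. Start sites of protein-coding genes came from the GENCODE annotation given with that build.

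Counts were filtered with filterByExpr (minimum count 10, minimum total 15), scaled by TMM and tested with edgeR 4.0.16 (quasi-likelihood F test, limma 3.58.1, R 4.3.3), each comparison fitted on its own groups over all genes, with Benjamini-Hochberg adjustment. Thresholds were an adjusted p of 0.01 for the depletion and intact experiments and 0.05 for the training experiment. The SE is the size of the log2 fold change divided by the square root of F. DESeq2 1.42.0 was an alternative, as were RLE factors, no filter, an added fold threshold, all groups in 1 fit, the replicate block and leaving out each library. Tables and figures were made with Python 3.11.15, pandas 2.3.3, numpy 2.4.6 and matplotlib 3.10.9. Scripts were tested on simulated counts. In the training table H2afy and H2afy2 were matched under their newer symbols. In the intact mice's table, older symbols were matched for 3 genes and 2 repeated symbols were left out.

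The members and lists were chosen with earlier results of these data known. All 40 members could be named, with the hairpin targets, Arc and Fos, up to 4 genes of a pathway list by smallest adjusted p, and markers at 0. Dut, Mcm10, Cdc7, Ccnd3 and Smc4 were named after their values were seen. Mice carry replicate numbers that labels do not tie together. All 3 pairs of same-numbered libraries deviated together only for trained against untrained shScr mice (r = 0.17, 0.17 and 0.23), where the blocked fit also called 0 members. Values of both signs, some larger, stood elsewhere: -0.21, 0.53 and 0.47 for shH2afy against shH2afy2, and -0.12, 0.41 and 0.3 for training in libraries labelled shH2afy. No pair of libraries agreed within sampling noise. Mice are the replicates, and p-values set a difference between groups against the spread between mice. There were 3 mice per group, except for 2 trained intact mice. CPM carry counting error, which is largest for members with few counts in the depletion experiment.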

Additional observations from a re-analysis of the deposited data

How the results depend on the processing

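For shH2afy against shScr in the depletion experiment, leaving out single libraries gave 11 to 29 members higher. The same range was 0 to 32 for shH2afy against shH2afy2, 28 to 36 for untrained and 23 to 30 for trained mice of the training experiment, 0 to 1 for intact mice, and 0 to 0 for shH2afy2 against shScr, for training within each virus and for the interaction. In these fits the share called of all genes, in either direction, was 6.04 to 21.2% for shH2afy against shScr in the depletion experiment. It was 0.012 to 20.5% against shH2afy2, 37.2 to 50.1% in untrained, 30.3 to 45.5% in trained and 0.0063 to 2.68% in intact mice. The replicate block, whose numbers do not pair these mice, gave 11 members in place of 27 in the depletion experiment, 32 in place of 30 against shH2afy2, 29 in place of 32 in untrained and 26 in place of 31 in trained mice, and changed no other count of members. In the same order, the block called 7.38, 22.8, 41.7 and 31.9% of all genes, in place of 17.1, 16.6, 47.9 and 46%. For shH2afy against shScr in the depletion experiment, DESeq2 gave 35 and no filter 36 in place of 27, beside 27.1 and 11.8% of all genes in place of 17.1%. Of the members in the 4 comparisons of shH2afy with shScr or shH2afy2, only Ccne2 turned its sign, never past a threshold: against shH2afy2, its log2 fold change of 0.01 became -0.07 with no filter and lay between -0.14 and 0.09 when single libraries were left out (-0.02 lacking shH2afy replicate 3, -0.04 and -0.14 lacking replicates 1 and 2 of shH2afy2). In trained mice its 0.05 lay between -0.16 and 0.21 (-0.16 lacking replicate 2 labelled shH2afy, -0.02 lacking replicate 2 of shScr). In the other comparisons, where no count was past 1, signs moved more: with a library left out, positive estimates numbered 7 to 14 for shH2afy2 against shScr, 26 to 34 for training in shScr mice, 2 to 10 for training in libraries labelled shH2afy, 3 to 11 for the interaction and 17 to 22 in intact mice. Over the alternatives for shH2afy against shScr in the depletion experiment, member results kept their side of the threshold 370 times, lost the call 82 times and gained it 28 times. Over all genes, shH2afy against shScr called 2759 genes, against 4382 with DESeq2, 4339 with no filter and 1194 with the replicate block. Against shH2afy2 it called 2699, against 4661, 4859 with no filter and 1557 with an added fold of 2. shH2afy2 against shScr called 0, against 486 with DESeq2 and 726 with no filter. Training called 0 in both viruses, against 251 and 47 with DESeq2, and 15 in intact mice, against 475 with DESeq2 and 51 with no filter. The cause of these shifts was not tested. A stricter false discovery rate under 0.001, chosen after seeing the data, gave a median domain share of 21.25% of members against 28.55% of all genes, and a domain over the start site itself, also chosen then, gave 2.5% over all libraries. Low counts limit the size of the largest ratios in the depletion experiment: 5 members averaged under 10 counts in shScr libraries and 11 in shH2afy2 libraries.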
